A study of Mus musculus with 8 samples.

Results

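A set of genes of the Wnt pathway were followed in mouse aortic smooth muscle cells (MASMCs) with and without *Hint1*. They were taken by symbol: the *Wnt*, *Fzd*, *Sfrp*, *Dkk* and *Rspo* families and *Frzb*, together with *Lrp5*, *Lrp6*, *Ror1*, *Ror2*, *Wif1*, *Axin1*, *Axin2*, *Lef1*, *Tcf7*, *Tcf7l1*, *Tcf7l2*, *Ctnnb1*, *Nkd1*, *Nkd2*, *Notum* and *Apcdd1*. This made 56 of the 18533 gene symbols in the count data, and 36 of the 56 were abundant enough to be tested. The other 20 never exceeded 16.3 counts in any sample.

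The samples were primary smooth muscle cultures from the aortas of wild-type (WT) and *Hint1*-/- mice, 4 samples of each genotype, and RNA was sequenced once per sample. The study writes *Hint1*-/- apart from its smooth-muscle-specific knockout, so the deletion is read here as carried by cells of any lineage in a culture. The allele itself is not described in the sources used here. All 8 cultures received PDGF-BB at 20 ng/mL for 24 h, a growth factor used to drive smooth muscle cells from a contractile to a synthetic state, so every comparison here is between genotypes under PDGF-BB and none is with unstimulated cells. The study's methods take the cells from male mice of 4 to 6 weeks of age after removal of adventitia and endothelium. The sources used here do not say whether the 4 samples of a genotype came from separate mice or cultures, and the p-values measure only the spread between these samples, which may be technical.

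Wnt proteins are secreted lipid-modified ligands that bind Frizzled receptors. In the canonical branch, a Wnt joins a Frizzled to the coreceptor LRP5 or LRP6, β-catenin escapes destruction by the AXIN/APC/GSK3 complex and activates genes with TCF/LEF factors. In the noncanonical branches, ligands such as WNT5A act through ROR receptors and Frizzleds on cell movement and polarity without β-catenin. Secreted proteins set how much ligand is sensed: FRZB and the SFRPs bind Wnts, Dickkopf proteins block LRP5/6, and R-spondins raise the number of Frizzleds at the surface. HINT1 itself has been described as a partner of Pontin and Reptin (*Ruvbl1* and *Ruvbl2*) that restrains transcription by β-catenin and TCF.

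The libraries held 20778077 to 20888041 estimated counts, with TMM factors from 0.993 to 1.01. *Hint1* had 2272 to 2364 counts in WT and 713 to 778 in *Hint1*-/- (log2 fold change -1.64 ± 0.037 SE, edgeR adjusted p = 6.8e-16), so the labels and the targeted gene went together, with reads on the gene still present in the knockout. The smooth muscle markers summed to 2508–2657 CPM (counts scaled to the same library total) in WT and 2322–2414 in *Hint1*-/-, with 5 of 8 tested fallen (*Acta2*, *Cnn1*, *Myh11*, *Lmod1* and *Des*), *Smtn* risen and *Myocd* at 7 to 14 counts. Macrophage markers summed to 2331–2698 CPM in WT and 1903–2026 in *Hint1*-/-, and 7 of 7 tested fell. Of all tested genes, 11.2% rose and 10.2% fell, to be set beside the marker counts in this paragraph. Fibroblast markers summed to 2072–2117 and 2962–3151 CPM (3 of 7 rose, 1 fell), Schwann and neural crest markers to 50.3–56.8 and 12.9–15.3 (7 of 8 fell), chondrocyte markers to 21.3–23.9 and 50.1–52.5 (3 of 4 rose, 1 fell), cardiac muscle markers to 2.01–2.68 and 7.27–11.4 (4 of 5 rose, of which *Myh6*, *Myh7* and *Myl7* passed the filter on low counts only through the knockout samples) and pericyte markers to 70.7–82.4 and 56.1–58.2 (2 of 4 fell). Endothelial markers lay at 5.57–8.12 and 5.24–7.68 CPM, mesothelial markers at 1.05–1.25 and 0.721–1.35, and adipocyte markers at 47.7–54.8 and 50.6–58.0, with no member called. No marker with an entry in the count data was at 0 in all libraries. The chondrocyte marker *Col9a1* and the adipocyte marker *Lep* had no entry. In such bulk RNA, fewer cells of a type and less RNA per cell cannot be told apart, and the part of these lists in the Wnt values below was not tested.

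Among the 36 tested members, 14 rose and 6 fell in *Hint1*-/- cells at an adjusted p under 0.05 (edgeR quasi-likelihood test, Benjamini-Hochberg over 13535 genes), and 16 did not pass. These were 38.9% and 16.7% of the tested members, where 11.2% of all tested genes rose and 10.2% fell. With a fold change over 1.5 added, 2 members were higher (*Wnt5b* and *Rspo3*) and 4 lower (*Wnt2*, *Fzd10*, *Dkk3* and *Dkk2*), which is 5.56% and 11.1% of the members against 1.34% and 1.49% of all tested genes. *Fzd10* passed the filter on low counts through its WT samples, and without it 3 of 35 members (8.57%) were lower. The log2 CPM of the 4 samples of each genotype did not overlap in 11 members that were higher in *Hint1*-/- (30.6%, against 11.9% of all tested genes). The same held for 7 that were lower (19.4%, against 11.0%). *Fzd10* is among these 7 and among the 6 that fell, so both shares also rest in part on its WT level. With at least 10 counts in every sample, a filter that leaves *Fzd10* out, 5 members fell. The median log2 fold change was 0.11 over the members and 0.00031 over all tested genes. Most changes were small: the median size of the log2 fold change was 0.20 over the members and 0.088 over all tested genes.

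By family, the secreted Wnt-binding antagonists, Frizzleds and LRP coreceptors were mostly higher in *Hint1*-/- cells, both tested Dickkopf genes were lower, the ligands were split, and β-catenin with the other tested intracellular regulators did not pass the test. Per kilobase of exon, *Frzb* ranked first of the 56 by its mean over both genotypes and *Ctnnb1* next to it, whereas the ligands were among the scarce members. Summed over a family, the CPM per kilobase went from 150 in WT to 207 in *Hint1*-/- for the Wnt-binding antagonists, from 31.0 to 18.3 for the Dickkopf genes, from 15.2 to 20.0 for the R-spondins, from 45.0 to 51.2 for the Frizzleds and from 20.8 to 23.2 for the coreceptors. The same sum was 7.82 and 7.37 for the 17 Wnt ligands and 105 in both genotypes for the 5 intracellular regulators. *Dkk3* alone made up 30.1 of the Dickkopf sum in WT and 17.7 in *Hint1*-/-. The family sums carry no test.

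**Figure D1:**
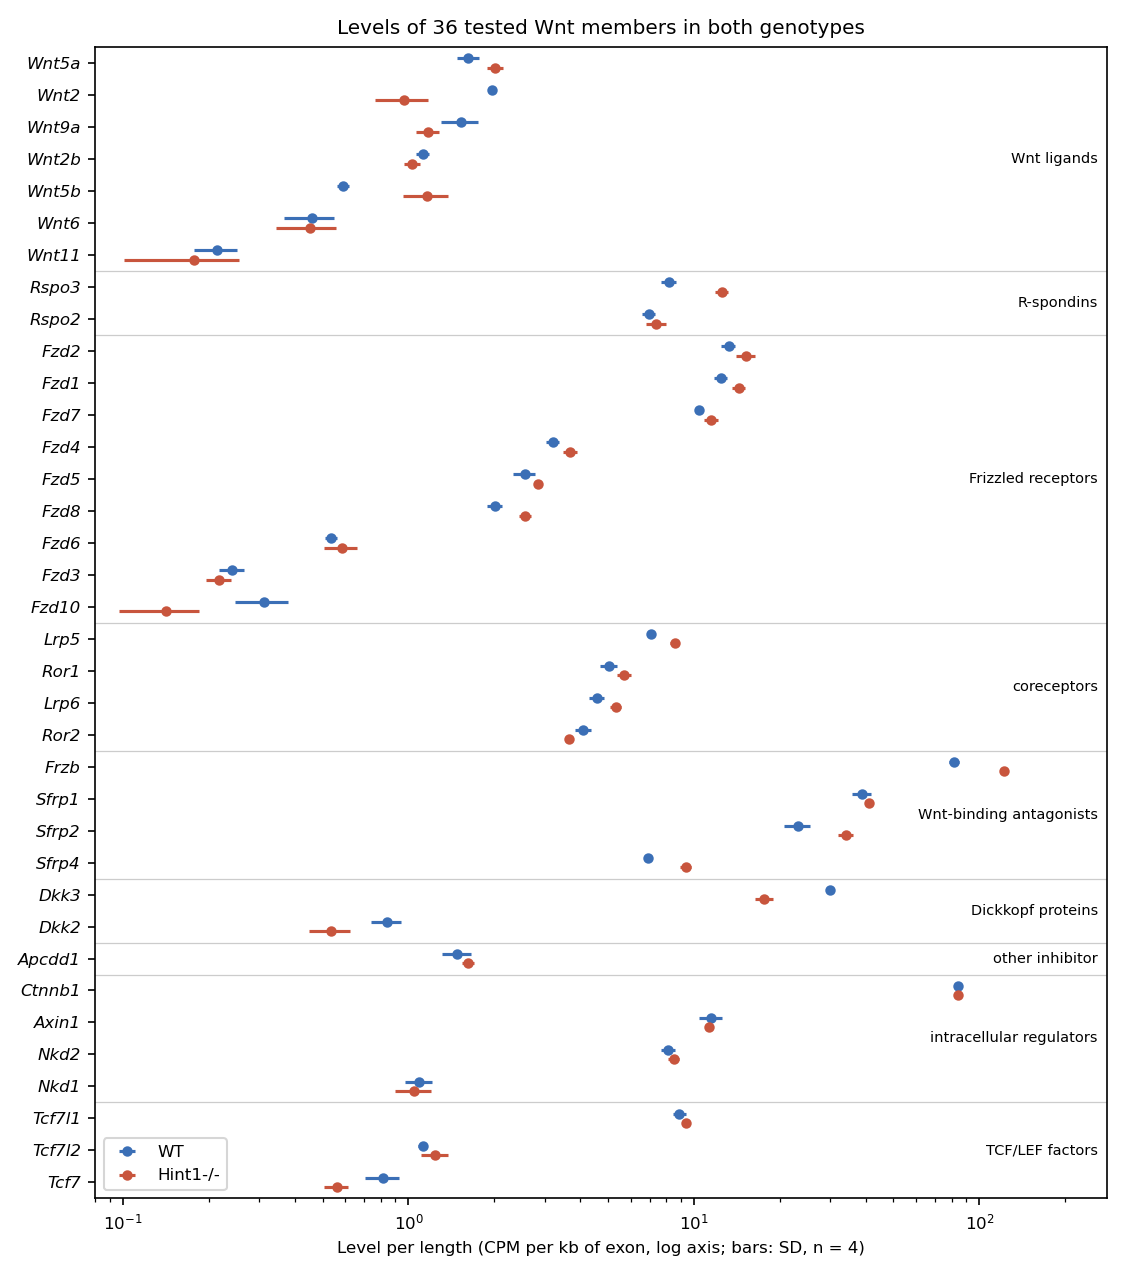
Level of each Wnt pathway gene in CPM per kilobase of exon (log axis; points are means, bars SD, n = 4) for the 36 tested members in WT (blue) and *Hint1*-/- (red) MASMCs under PDGF-BB, arranged by role. *Frzb* went from 81.6 to 122 and *Dkk3* from 30.1 to 17.7, while *Ctnnb1* lay at 84.2 and 84.0.

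Promoter sequence is shown for *Frzb*, *Wnt2*, *Wnt5b* and *Fzd10*, that is, the members past both thresholds whose promoter held one of the motifs searched, and *Frzb* as the member with the highest level. The promoters of *Fzd1* and *Ror1* (TCF/LEF core), *Fzd4* (AP-2) and *Wnt9a* (E-box and AP-2) also held a match and are not shown. Each run is the 250 bases before a RefSeq start site on the gene's strand in GRCm38.p6, 5′ to 3′, with the matches in capitals. The motifs were the TCF/LEF core CTTTGA, the E-box CACGTG and an AP-2 motif, GCCNNNGGC, since the AP-2 factor TFAP2A was studied together with HINT1. All were read on both strands, so TCAAAG is a CTTTGA match on the other strand.
Frzb, chr2:80447397-80447646, minus strand: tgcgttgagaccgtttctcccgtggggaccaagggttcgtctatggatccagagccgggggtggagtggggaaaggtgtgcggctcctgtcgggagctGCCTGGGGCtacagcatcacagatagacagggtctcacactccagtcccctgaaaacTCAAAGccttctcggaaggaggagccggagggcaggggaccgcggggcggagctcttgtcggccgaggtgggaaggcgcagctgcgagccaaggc
Wnt2, chr6:18030446-18030695, minus strand: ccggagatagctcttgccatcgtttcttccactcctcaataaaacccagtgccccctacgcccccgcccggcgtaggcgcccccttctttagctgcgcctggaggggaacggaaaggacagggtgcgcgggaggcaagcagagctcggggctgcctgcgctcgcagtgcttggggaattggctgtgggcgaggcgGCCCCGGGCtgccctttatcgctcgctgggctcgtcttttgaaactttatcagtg
Wnt5b (start 1), chr6:119544348-119544597, minus strand: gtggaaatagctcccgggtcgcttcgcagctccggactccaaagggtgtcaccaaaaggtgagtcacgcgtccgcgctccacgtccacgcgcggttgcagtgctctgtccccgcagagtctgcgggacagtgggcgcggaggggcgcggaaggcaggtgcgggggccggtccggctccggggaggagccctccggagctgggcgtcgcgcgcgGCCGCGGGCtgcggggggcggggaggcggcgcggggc
Wnt5b (start 3), chr6:119449387-119449636, minus strand: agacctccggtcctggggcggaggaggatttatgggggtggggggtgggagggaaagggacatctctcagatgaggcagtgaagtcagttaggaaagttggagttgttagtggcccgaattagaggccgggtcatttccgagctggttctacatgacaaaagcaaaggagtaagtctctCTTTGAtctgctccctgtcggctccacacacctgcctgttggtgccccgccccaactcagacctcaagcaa
Fzd10, chr5:128600856-128601105, plus strand: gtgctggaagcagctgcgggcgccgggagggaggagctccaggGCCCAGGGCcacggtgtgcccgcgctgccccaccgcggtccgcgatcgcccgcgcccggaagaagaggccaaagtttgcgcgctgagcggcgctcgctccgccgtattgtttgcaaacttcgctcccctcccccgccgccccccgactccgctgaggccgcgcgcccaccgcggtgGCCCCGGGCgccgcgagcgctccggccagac
The TCF/LEF core lay 95 bases before the *Frzb* start and 71 before start 3 of *Wnt5b*. AP-2 matches lay 152 bases before the start of *Frzb*, 55 before *Wnt2*, 37 before start 1 of *Wnt5b*, and 207 and 31 before *Fzd10*. The *Sfrp2* and *Dkk2* promoters held none of these letters. *Rspo3* and *Dkk3*, also past both thresholds, had no promoter entry and were not searched. Of 46 promoters of the 37 members with an entry, 7 held CTTTGA (15.2%, against 13.8% of 32851 mouse promoters), 5 held CACGTG (10.9%, against 6.02%) and 15 held GCCNNNGGC (32.6%, against 13.7%). Among the 15 promoters of the 12 members that passed the test, the counts were 4, 1 and 6. GCCNNNGGC is rich in G and C, and the promoters of *Wnt5b* (start 1) and *Fzd10* were 75.2% and 76.4% G and C. The RefSeq starts can lie inside the GENCODE gene span: the *Fzd10* window and that of start 3 of *Wnt5b* lay wholly within it, and those of *Frzb* and *Wnt2* partly. A match describes the letters in the window and is not a binding site.

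Of the 17 Wnt ligands in the count data, 7 were tested and 3 of these did not pass. Of the 7, 2 rose and 2 fell (28.6% each, beside 11.2% and 10.2% of all tested genes). *Wnt3a* and *Wnt9b* had no entry in the count data and could not be assessed. *Wnt5b*, a noncanonical ligand on chromosome 6 (mm10 chr6:119432531-119544347), had 32, 35, 33 and 31 counts in WT and 70, 71, 68 and 47 in *Hint1*-/- samples. Every knockout sample lay above every WT sample, the fourth closest to them. The level went from 1.57 ± 0.0775 CPM (SD, n = 4) to 3.09 ± 0.552, a log2 fold change of 0.98 ± 0.17 (SE, edgeR adjusted p = 0.000269). *Wnt2*, a canonical ligand on the same chromosome (chr6:17988940-18030585), moved the other way, with 93.84, 95.38, 92.32 and 87.93 counts in WT and 49.21, 55.87, 34.21 and 42.34 in *Hint1*-/-. The groups did not overlap, and the level fell from 4.41 ± 0.143 to 2.18 ± 0.459 CPM (log2 fold change -1.01 ± 0.14, adjusted p = 3.5e-05). The decimals show that the estimation shared reads between *Wnt2* and another gene or transcript, so its counts are less certain than whole ones.

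*Wnt5a*, the best-known noncanonical ligand, had 280, 263.15, 285 and 232.38 counts in WT and 313.01, 321.03, 358.05 and 314 in *Hint1*-/-. It was higher in all 4 knockout samples, by 0.31 ± 0.072 on the log2 scale (adjusted p = 0.00415). *Wnt9a* had 120, 87, 117 and 100 counts in WT and 85, 85, 83 and 70 in *Hint1*-/-, where the second WT sample nearly met the knockout samples. Its fall of log2 -0.38 ± 0.12 (adjusted p = 0.0342) passed narrowly: without WT replicate 1 or 3, or without any 1 of the *Hint1*-/- samples, the adjusted p was between 0.05 and 0.115, and with DESeq2 it was 0.0849. *Wnt2b* (93 to 103 counts in WT, 82 to 95 in *Hint1*-/-), *Wnt6* (16 to 25 and 14 to 25) and *Wnt11* (14 to 21 and 8 to 23) did not pass, with log2 fold changes of -0.12, -0.02 and -0.27. The remaining 10 ligands were too scarce to test. *Wnt4* had the most reads of these, 24 over the 4 WT samples and 44 over the 4 *Hint1*-/- samples. The genotypes overlapped, with 2.44 to 8.63 counts per sample in WT and 6.96 to 16.3 in *Hint1*-/-. The pooled ratio of 1.85 per read sequenced had a 95% interval of 1.10 to 3.18 that covers counting error only. Such intervals were computed for all 20 members that were not tested, without correction for their number. *Wnt1*, *Wnt3*, *Wnt7a*, *Wnt7b*, *Wnt8a*, *Wnt8b*, *Wnt10a*, *Wnt10b* and *Wnt16* each had 0 to 8 counts per sample. Per kilobase of exon, *Wnt2* (1.96 CPM per kilobase) and *Wnt5a* (1.62) were the highest ligands in WT. In *Hint1*-/- cells *Wnt5a* was first at 2.01, and *Wnt9a* (1.17), *Wnt5b* (1.16), *Wnt2b* (1.03) and *Wnt2* (0.968) followed.

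**Figure D2:**
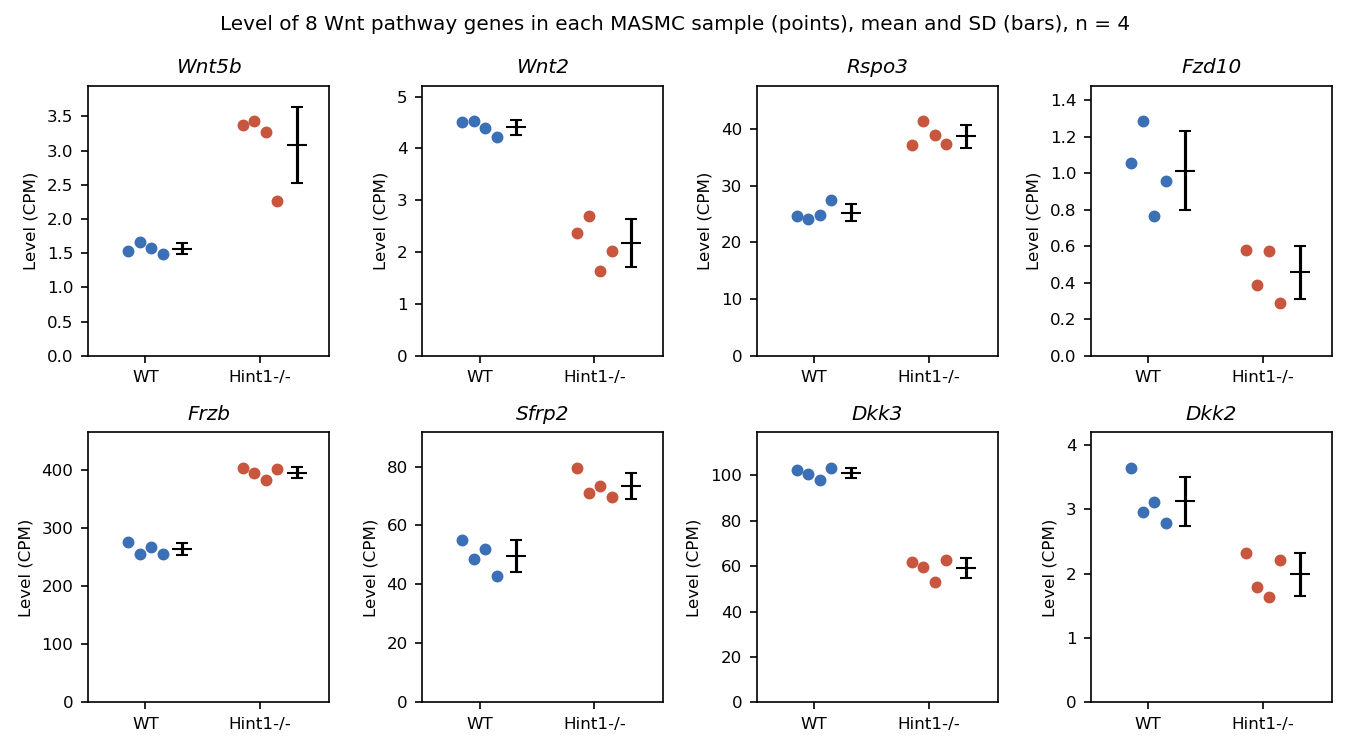
CPM in each of the 4 WT and 4 *Hint1*-/- samples for 8 Wnt pathway genes, each panel with its own axis from 0 (points are samples, bars the mean and SD). *Wnt2*, *Dkk3* and *Dkk2* sat lower in every knockout sample, and *Wnt5b*, *Rspo3*, *Frzb* and *Sfrp2* higher.

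R-spondins strengthen Wnt signals by keeping the ubiquitin ligases ZNRF3 and RNF43 from removing Frizzleds. *Rspo3* (chr10:29452416-29535867) had 515, 505, 520 and 573 counts in WT and 769, 856, 811 and 774 in *Hint1*-/-, well apart in all samples. It rose from 25.3 ± 1.50 to 38.7 ± 1.98 CPM (SD, n = 4; log2 fold change 0.61 ± 0.052 SE, adjusted p = 8.0e-08). It stood just past the 1.5-fold limit, which it no longer reached without *Hint1*-/- replicate 2 (log2 fold change 0.58). *Rspo2* had 683 to 768 counts in WT and 727 to 851 in *Hint1*-/-, with overlap (log2 fold change 0.09, adjusted p = 0.300). *Rspo1* and *Rspo4* had 0 to 5 counts per sample. The R-spondin receptor *Lgr4* (log2 fold change 0.01) and *Znrf3* (-0.13) did not pass.

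Of 9 tested Frizzled receptors, 5 rose (55.6%, against 11.2% of all tested genes), 1 fell (11.1%, against 10.2%) and 3 did not pass. *Fzd8* had 266, 247, 257 and 232 counts in WT and 315, 295, 328 and 329 in *Hint1*-/-, with no overlap and a log2 fold change of 0.35 ± 0.065 (adjusted p = 0.000651). *Fzd1* had 1162.16, 1080.02, 1092.91 and 1024.08 counts in WT and 1250.85, 1293.47, 1165.00 and 1301.02 in *Hint1*-/-. The highest WT sample nearly touched the lowest knockout sample, and the log2 fold change was 0.21 ± 0.045 (adjusted p = 0.00210). *Fzd2* had 1057.84, 935.98, 1045.09 and 1011.91 counts in WT and 1234.14, 1069.53, 1233.99 and 1088.98 in *Hint1*-/-, again apart by a narrow gap (0.20 ± 0.052, adjusted p = 0.00853). *Fzd1*, *Fzd2* and *Fzd7* are close relatives, and the decimals in their counts show that some of their reads were divided by estimation. With overlapping groups, *Fzd4* (429 to 478 counts in WT, 473 to 540 in *Hint1*-/-) rose by 0.20 on the log2 scale (adjusted p = 0.0180) and *Fzd7* (960 to 1012 and 993 to 1137) by 0.14 (adjusted p = 0.0240). Those calls were not stable: *Fzd4* had an adjusted p of 0.0547 to 0.0642 without WT replicate 1 or *Hint1*-/- replicate 2 or 4, and *Fzd7* one of 0.0625 to 0.089 without WT replicate 3 or 4 or *Hint1*-/- replicate 1 or 4, and of 0.0596 with DESeq2.

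*Fzd10* (chr5:128600844-128604093) was the Frizzled that fell. It had 22, 27, 16 and 20 counts in WT and 12, 8, 12 and 6 in *Hint1*-/-, a log2 fold change of -1.14 ± 0.28 (adjusted p = 0.00641). All 4 WT samples but only 2 of the *Hint1*-/- samples reached the limit of the filter on low values, so it was tested because of its WT level, and a filter of at least 10 counts in every sample leaves it out. *Fzd5* (log2 fold change 0.16, adjusted p = 0.0931), *Fzd6* (0.12, adjusted p = 0.604) and *Fzd3* (-0.15, adjusted p = 0.488) did not pass, and *Fzd9* had 3 to 10 counts per sample.

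Both LRP coreceptors of the canonical branch were higher in *Hint1*-/- cells. *Lrp5* had 1499, 1451, 1429 and 1383 counts in WT and 1709, 1716, 1675 and 1815 in *Hint1*-/-, a log2 fold change of 0.27 ± 0.037 (adjusted p = 2.7e-05). *Lrp6* had 1184, 1351, 1346 and 1337 counts in WT and 1497, 1510, 1430.99 and 1602 in *Hint1*-/- (0.22 ± 0.045, adjusted p = 0.00142). The genotypes did not overlap for either gene, and the first WT sample of *Lrp6* lay far below the other WT samples. Of the noncanonical receptors, *Ror1* (549 to 643 counts in WT, 625 to 707 in *Hint1*-/-) rose by 0.17 ± 0.055 on the log2 scale (adjusted p = 0.0302), with overlap. Its adjusted p was 0.0625 to 0.0979 without WT replicate 3 or 4 or *Hint1*-/- replicate 1, 2 or 4, and 0.064 with DESeq2. *Ror2* had 347 to 398 counts in WT and 308 to 334 in *Hint1*-/-, lower in every knockout sample without passing the test (log2 fold change -0.16, adjusted p = 0.0659).

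The secreted antagonists that bind Wnts directly had the highest summed level per kilobase of any family. Of the 4 tested, 3 rose (75%, against 11.2% of all tested genes). *Frzb* (chr2:80411970-80447625), a soluble relative of the Frizzled ligand-binding domain known from cartilage, had 5763, 5370, 5614 and 5328 counts in WT and 8378, 8163, 7961 and 8332 in *Hint1*-/-. Both genotypes were tight and far apart, at 264 ± 10.3 and 396 ± 9.50 CPM (SD, n = 4; log2 fold change 0.58 ± 0.034 SE, adjusted p = 4.8e-10). *Sfrp2* (chr3:83766321-83774316) had 1151, 1021, 1088 and 894 counts in WT and 1651, 1468, 1526 and 1450 in *Hint1*-/-, with no overlap (0.56 ± 0.060, adjusted p = 1.2e-06). The log2 fold changes of *Frzb* and *Sfrp2*, 0.584 and 0.564, lay just under the 1.5-fold limit of 0.585: *Frzb* passed it without WT replicate 1 or 3 or *Hint1*-/- replicate 2 or 3 (log2 fold change 0.59 to 0.61) and *Sfrp2* without WT replicate 1 or 3 or *Hint1*-/- replicate 4 (0.59 to 0.62).

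*Sfrp4* had 597, 621, 616 and 581 counts in WT and 760, 831, 833 and 818 in *Hint1*-/-, a log2 fold change of 0.44 ± 0.045 (adjusted p = 9.3e-07) with no overlap. *Sfrp1*, second to *Frzb* per kilobase among these antagonists, had 3195 to 3773 counts in WT and 3623 to 3850 in *Hint1*-/-, with overlap, and did not pass (0.09 ± 0.044, adjusted p = 0.161). *Wif1* had 19 counts over the WT samples and 12 over the *Hint1*-/- samples, and *Sfrp5* had 0 and 2. The rise of the antagonists went with that of some fibroblast and chondrocyte markers: *Dcn* and *Lum*, matrix proteoglycans of fibroblasts, rose by 0.83 and 0.88 on the log2 scale, and *Col2a1*, the main cartilage collagen, by 3.41, from 2.28 to 24.4 CPM. Neither list moved as a whole: the fibroblast marker *Dpt* fell by 0.79 and *Acan*, the cartilage proteoglycan aggrecan, by 1.84 on the log2 scale, and *Matn1*, *Matn3* and *Hapln1* had 0 to 6 counts per sample. The part of such cells in the antagonist values was not tested.

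Both tested Dickkopf genes fell (100%, against 10.2% of all tested genes). *Dkk3* (chr7:112116017-112159057), a divergent family member whose action on LRP5/6 is disputed, had 2133, 2107, 2052 and 2158 counts in WT and 1281, 1237, 1103 and 1304 in *Hint1*-/-. Its level in the knockout was 58.7% of that in WT (101 ± 2.32 and 59.4 ± 4.40 CPM, SD, n = 4; log2 fold change -0.77 ± 0.045 SE, adjusted p = 4.1e-10). *Dkk2* (chr3:132085292-132180304), which binds LRP6, had 76.05, 62, 65 and 58 counts in WT and 48.04, 37, 33.99 and 45.76 in *Hint1*-/-. The groups did not overlap (-0.65 ± 0.16, adjusted p = 0.00546), and the log2 fold change was -0.57, inside the 1.5-fold limit, without WT replicate 1 or without *Hint1*-/- replicate 3. *Dkk1* (7 counts over the WT samples and 8 over the *Hint1*-/- samples) and *Dkk4* (2 and 1), the other LRP-binding Dickkopfs, were close to absent from both genotypes.

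**Figure D3:**
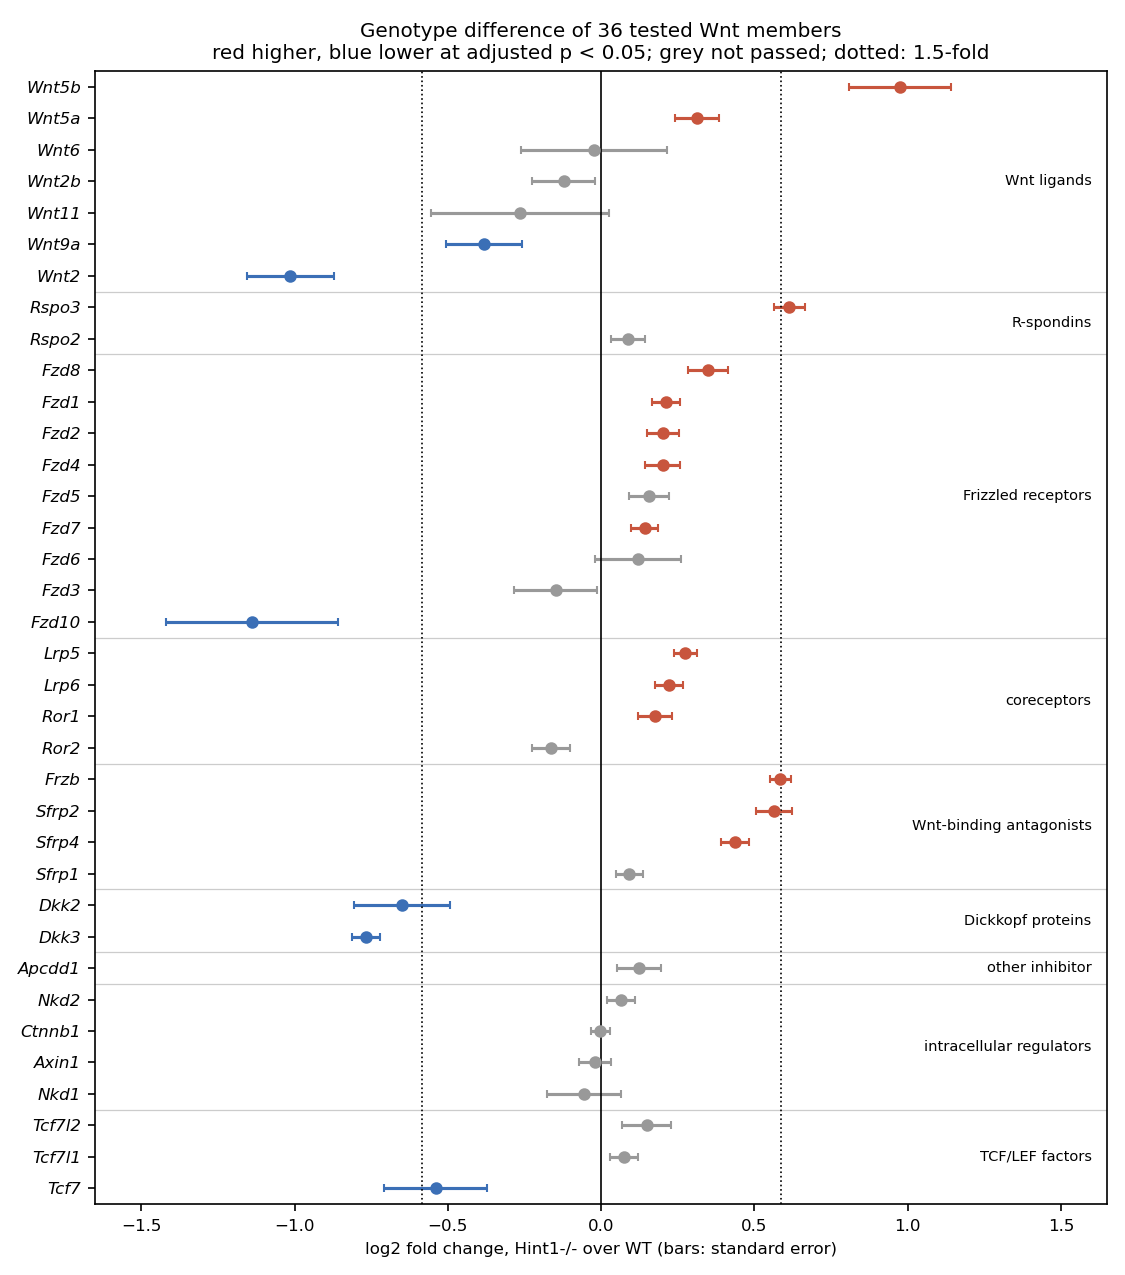
Log2 fold change (*Hint1*-/- over WT) with its standard error for the 36 tested members, grouped by role, 4 samples a genotype; red members rose, blue fell and grey did not pass, and dotted lines mark the 1.5-fold limits. Values run from -1.14 for *Fzd10* to 0.98 for *Wnt5b*, and intracellular regulators lie close to 0.

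Of the intracellular regulators, the 4 that were tested did not pass, and *Axin2* was too scarce to test. *Ctnnb1*, which encodes β-catenin, had 9114, 9028, 9137 and 9283 counts in WT and 8714, 9088, 9208 and 9187 in *Hint1*-/-, at 437 ± 5.95 and 436 ± 10.7 CPM (log2 fold change -0.0034 ± 0.031, adjusted p = 0.954). Its SE of 0.031 on the log2 scale was the smallest of the 36 tested members. β-catenin is controlled mainly through protein stability, which RNA counts do not measure. *Axin1*, a scaffold of the destruction complex, and *Nkd1* and *Nkd2*, which bind Dishevelled, had log2 fold changes of -0.02, -0.06 and 0.06. *Apcdd1*, a membrane inhibitor of Wnt signalling, had 331 to 436 counts in WT and 412 to 453 in *Hint1*-/- (0.12, adjusted p = 0.255), and *Notum*, which strips the lipid from Wnts, had 4 counts over the WT and 6 over the *Hint1*-/- samples.

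*Axin2*, the usual readout of canonical Wnt activity, had 2, 3, 5 and 4 counts in WT and 4, 5, 7 and 5 in *Hint1*-/-. It was too scarce to test, and the pooled ratio of 1.51 had a 95% counting interval from 0.733 to 3.21. *Lef1* had 2, 1, 0 and 1 counts in WT and 0, 0, 1 and 0 in *Hint1*-/-. Of the other TCF factors, *Tcf7* (39 to 52 counts in WT, 29 to 35 in *Hint1*-/-) fell by 0.54 on the log2 scale (SE 0.17, adjusted p = 0.0276), without overlap. That call was lost with DESeq2 (adjusted p = 0.112) and without WT replicate 1 or 3 or *Hint1*-/- replicate 2, 3 or 4 (0.0638 to 0.0929). *Tcf7l1* (log2 fold change 0.07) and *Tcf7l2* (0.15) did not pass.

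Beyond the 56 members, a list of other Wnt pathway genes (secretion, coreceptors, Dishevelled, destruction complex, corepressors, planar polarity) had 60 tested genes, of which 10 rose, 3 fell and 47 did not pass. That is 16.7% and 5% of the list, beside 11.2% and 10.2% of all tested genes, and the median log2 fold change was 0.02. *Celsr3*, a planar polarity cadherin, had 83, 89, 78 and 90 counts in WT and 141, 125, 141 and 149 in *Hint1*-/- (0.72 ± 0.100, adjusted p = 3.2e-05). *Igfbp4*, an IGF-binding protein that also inhibits Wnt signalling, had 1341, 1275, 1281 and 1290 counts in WT and 1784, 1696, 1842 and 1729 in *Hint1*-/- (0.45 ± 0.037, adjusted p = 4.1e-08). *Gpc3*, a cell-surface glypican that binds Wnts, fell from 176, 171, 170 and 128 counts to 79, 73, 77 and 63 (-1.13 ± 0.12, adjusted p = 1.1e-06). *Cthrc1*, a secreted protein that steers Wnts to the noncanonical branch, fell from 101, 96, 87 and 85 counts to 64, 61, 48 and 48 (-0.73 ± 0.13, adjusted p = 0.000509). In all of these genes, the 4 samples of each genotype stood apart. *Reck* (0.23), the corepressor *Tle1* (0.21), *Prickle2* (0.31) and *Bcl9l* (0.17) also rose without overlap. The corepressors were split: *Tle2* rose as well (0.35), and *Tle3* and *Tle5* did not pass. *Tle4* was the third gene that fell, without overlap (-0.23, adjusted p = 0.0192), a call lost in 4 of 15 alternatives. *Ruvbl1* (-0.04, adjusted p = 0.581) and *Ruvbl2* (0.04, adjusted p = 0.402), which encode the HINT1 partners Pontin and Reptin, did not pass, nor did *Wls*, needed for Wnt secretion, *Gsk3b* and *Apc*.

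Genes known elsewhere as targets of β-catenin and TCF moved in both directions. Of 15 tested, 3 rose (20%), 4 fell (26.7%) and 8 did not pass, beside 11.2% and 10.2% of all tested genes, none by over 1.5-fold and with a median log2 fold change of 0.01. *Ccn4*, a matricellular protein also called WISP1, had 2253, 2162, 1987 and 2020 counts in WT and 1677, 1540, 1569 and 1494 in *Hint1*-/- (-0.41 ± 0.045, adjusted p = 1.6e-06), lower in every knockout sample. *Ccnd1*, which encodes cyclin D1, fell by 0.29 on the log2 scale (adjusted p = 3.2e-06), whereas *Myc* rose by 0.16 (adjusted p = 0.00377). *Tcf4*, here the gene of the basic helix-loop-helix factor E2-2 and not of TCF7L2, rose by 0.19, and *Msx1* by 0.49 (adjusted p = 0.0459). The *Msx1* call was lost in 11 of 15 alternatives, 7 of them fits without 1 sample (all but the one without *Hint1*-/- replicate 4), with an adjusted p of up to 0.192. *Cd44* and *Tcf7* made up the 4 that fell. Several of the tested genes answer to growth factors as well. *Axin2*, *Lef1*, *Dkk1*, *Dkk4*, *Lgr5*, *Notum*, *Rnf43*, *Sp5* and *Tnfrsf19* were too scarce to test. Without WT replicate 1 or without *Hint1*-/- replicate 4, 2 of the target genes fell instead of 4.

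**Figure D4:**
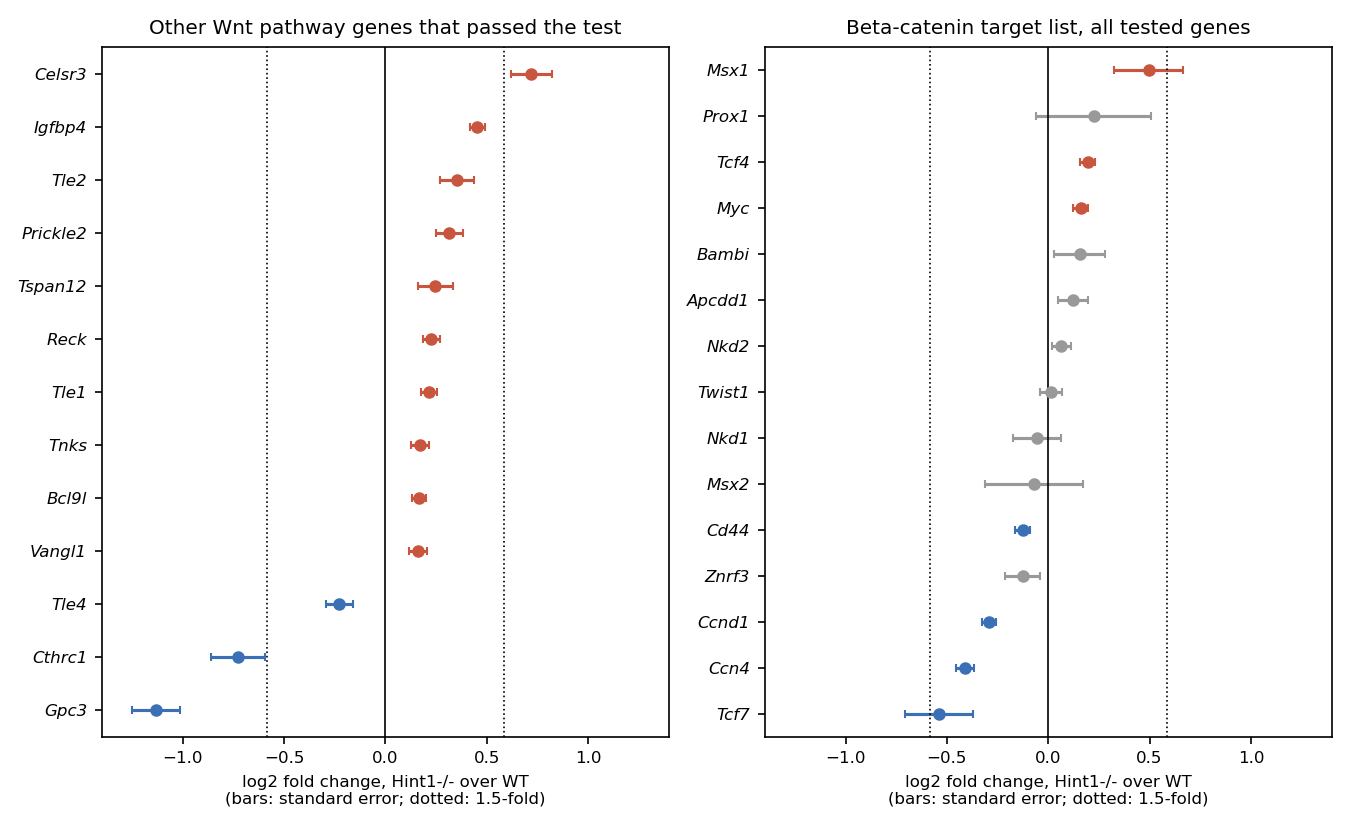
Log2 fold change (*Hint1*-/- over WT) with its standard error for other Wnt pathway genes that passed the test and for the tested target genes, 4 samples a genotype; red genes rose, blue fell and grey did not pass, and dotted lines mark the 1.5-fold limits. *Gpc3* at -1.13 and *Celsr3* at 0.72 lie at the ends, and the target genes lie on both sides of 0.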

How the data were processed

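RNA was sequenced from 4 WT and 4 *Hint1*-/- MASMC samples, all under PDGF-BB, and the groups were taken from the labels. The authors deposited 1 file of estimated counts per gene for each sample, not normalized, with 67.3 to 67.8% of the values, zeros included, written as whole numbers; the rest come from reads divided between genes or transcripts. The submitters' processing notes list Bowtie2, RSEM 1.3.1 and DESeq2 1.4.5 on mm10, whereas the study's methods name HISAT2. The annotation and strand setting are not given in the sources used here.

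Counts were rounded and tested with edgeR 4.0.16 in R 4.3.3 (filterByExpr, TMM, quasi-likelihood F test, genotype only) on 13535 of 18533 genes, with Benjamini-Hochberg adjustment over all of them. Members were called at an adjusted p under 0.05, and also with a fold over 1.5. SEs were computed from the log2 fold change and F (its absolute value over √F). CPM used TMM library sizes, and overlap between genotypes was judged on log2 CPM. Exon lengths and positions came from GENCODE M21 and promoters from RefSeq, which gave 37 of the 56 members an entry. On counts simulated for 13535 genes with 200 changed 2-fold, edgeR recovered 100% with 11 false calls, and made 0 false calls with none changed. The changed genes were not drawn from the least abundant genes. The recovery therefore does not cover scarce genes, or changes under 2-fold such as those of most members.

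The members, gene lists and tests were chosen with earlier results of these data known. Counts in each sample are given for members past both thresholds, for members with an adjusted p under 0.05, averaging 50 counts or more and not overlapping between genotypes, and for *Axin2*, *Lef1*, *Ctnnb1*, *Lrp5* and *Lrp6*; other members are accounted for by ranges. Genes of the other Wnt lists are named when past both thresholds or among the up to 8 with the smallest p and no overlap. *Cd44*, *Tle2*, *Tle4* and the genes given as not passing were named after their values were seen. Alternatives were DESeq2 size factors, upper-quartile scaling, no filter, at least 10 counts in every sample, DESeq2 1.42.0, limma-voom 3.58.1, the replicate number as a block, and leaving out each sample. Libraries of 1 genotype differed beyond counting noise (chi-square per gene 2.10 to 5.47 over 12 pairs), so none was a copy of another. Intervals on pooled counts are exact binomial and cover counting error only.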

Additional observations from a re-analysis of the deposited data

Results flagged for a closer look

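In 72 groups of 4 samples, 1 per tested member and genotype, 7 had 1 sample far from the other 3, where chance marks about 1 in 20 groups, or 3.6 of 72. The gap to the nearest other sample is given as a share of the group's range. *Lrp6* in WT replicate 1 (1184 counts, the others 1337 to 1351) had a gap of 0.96, *Rspo2* in WT replicate 4 (683, others 756 to 768) one of 0.89, and *Apcdd1* in WT replicate 4 (331, others 415 to 436) one of 0.841, all low. *Wnt5b* in *Hint1*-/- replicate 4 (47, others 68 to 71) had a gap of 0.883, *Wnt9a* in *Hint1*-/- replicate 4 (70, others 83 to 85) one of 0.853, and *Ctnnb1* in *Hint1*-/- replicate 1 (8714, others 9088 to 9208) one of 0.847, also low. *Tcf7* in *Hint1*-/- replicate 1 (35, the others 29) was high, with a gap of 0.973.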

How the results depend on the processing

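The count of members that rose was 14, and 11 to 14 over all alternatives; the count that fell was 6, and 4 to 7. DESeq2 gave 12 (without *Fzd7* and *Ror1*) and 4 (without *Tcf7* and *Wnt9a*). Past both thresholds, 2 members were higher in every setting that kept all samples, and leaving out 1 sample gave 2 to 4: without WT replicate 1 or 3, *Frzb* and *Sfrp2* made it 4. The 4 lower members became 3 with at least 10 counts in every sample, and 3 to 5 on leaving out 1 sample. Of other Wnt pathway genes, 3 fell, 5 with at least 10 counts in every sample, and 2 to 6 on leaving out 1 sample (6 without *Hint1*-/- replicate 1, and 2 without WT replicate 3 or *Hint1*-/- replicate 2 or 3); 8 to 10 rose. Target genes that fell numbered 4, and 2 to 4 on leaving out 1 sample, and 2 to 3 rose, with *Msx1* the one lost. Of 314 values of single members, 285 kept direction and their side of the adjusted p threshold (12 of these, of *Dkk2*, *Frzb*, *Rspo3*, *Sfrp2* and *Tcf7*, crossed the 1.5-fold limit), 27 lost the adjusted p, and *Ctnnb1*, never called, changed sign in 2: its log2 fold change was 0.0049 without WT replicate 4 and 0.014 without *Hint1*-/- replicate 1, and ranged from -0.011 to 0.014 on leaving out 1 sample. The cause was not tested. With the replicate number as a block, 14 members rose and 6 fell, and the other counts moved by at most 1; same-numbered samples of the 2 genotypes did not deviate together (correlations -0.045, 0.0814, 0.00875 and 0.0230), and only replicates 2 and 4 matched their own number best. At this depth 20 members were too scarce to test, among them *Axin2* and *Lef1*.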
